A study of Mus musculus with 32 samples.

Results

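Small nucleolar RNAs (snoRNAs) and small Cajal-body RNAs (scaRNAs) were described here across 7 groups of mouse precursor B cells and leukemias. A member was any probeset of the array that names exactly 1 gene in the platform annotation and whose gene symbol starts with Snord, Snora or Scarna followed by a number. The rule found 60 probesets for 54 genes among the 21789 probesets that name a single gene, of 28944 on the array. C/D box RNAs (Snord) supplied 33 probesets for 31 genes, H/ACA box RNAs (Snora) 23 probesets for 20 genes, and Scarna genes 4 probesets for 3 genes. No measured value took part in the choice.

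C/D box RNAs base-pair with ribosomal or spliceosomal RNA and place ribose methyl groups on it through the methyltransferase fibrillarin, whereas H/ACA box RNAs direct the conversion of uridine to pseudouridine through dyskerin. Scarna genes encode related guides that work on spliceosomal RNAs in Cajal bodies. In mammals most of these RNAs are cut out of introns of a host transcript, often the mRNA of a ribosomal protein or a non-coding small nucleolar RNA host gene (Snhg, Gas5), so that 1 transcription unit yields both a host RNA and 1 or more snoRNAs. Bone marrow precursor B cells alternate between growing pro-B and preB stages and resting ones, and ribosome production is known to differ between such states.

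The arrays (Affymetrix MoGene 1.0 ST, 32 in all, 1 biological replicate each) came from mice of a mixed C57BL/6 and CBA background. Leukemic bone marrow was taken from Pax5+/- mice (n = 6) and from Pax5+/-;Myd88+/- mice (n = 6). Their age at sampling is not given. Pax5 encodes a transcription factor of the B lineage, of which 1 germline copy is missing, and Myd88 encodes the adaptor of Toll-like receptors, from the strain B6.129P2(SJL)-Myd88<tm1.1Defr>/J, with the deleted allele present in 1 copy. The control of the leukemias was sorted WT proB and preB cells (B220low IgM-, n = 4), and 4 further groups of 4 were healthy proB cells, WT, Pax5+/-, Pax5+/-;Myd88+/- and Pax5+/-;Myd88-/-. The sample labels call these last groups MACS-sorted B220+ bone marrow cells and mention no culture, whereas the study's methods describe proB cells of WT, Pax5+/- and Pax5+/-;Myd88+/- mice a few weeks old, selected for B220 and grown with IL7 on ST2 stromal feeder cells. The Myd88-/- cells are named in the labels only. For all 7 groups alike, the labels give a move at 2 months of age from a specific pathogen free to a conventional facility and no treatment. Because leukemic marrow was measured as a whole, sorted cells were selected as B220low IgM- and proB cells came through B220 selection and, by the methods, culture, the kind of preparation cannot be told apart from the kind of cell in any comparison between these 3 sources. In the order of the sample list, the Pax5+/-;Myd88+/- leukemias and the 4 proB groups come first. Sorted WT cells and Pax5+/- leukemias come last. The labels describe no difference in handling between these parts of the list. Any such difference cannot be told apart from genotype in the comparison of the leukemias. Every sample is a bulk sample, in which fewer cells of a type and less RNA per cell cannot be told apart.

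Values are gene-level log2 intensities, and a difference of 1 is a 2-fold ratio. Array medians over all probesets ran from 6.88 to 7.03. The Myd88 probeset matched the labels, with 9.87 to 10.38 in the Pax5+/- leukemias against 8.26 to 9.39 in the Pax5+/-;Myd88+/- leukemias, and with 9.21 to 9.35, 8.51 to 8.78 and 7.04 to 7.44 in proB cells with both, 1 and no intact copies on the Pax5+/- background. B lineage markers (8 of 9 measured) averaged 11.71 to 11.85 per array in sorted cells, 11.67 to 12.11 in proB cells, 8.96 to 11.66 in Pax5+/- leukemias and 9.89 to 11.76 in Pax5+/-;Myd88+/- leukemias, so the markers of the labelled lineage were high in sorted and proB cells and lower in part of the leukemias. Macrophage markers (7) averaged 6.57 to 6.71 in sorted cells, 6.25 to 6.39 in proB cells, 8.14 to 9.45 in Pax5+/- leukemias and 6.83 to 9.74 in Pax5+/-;Myd88+/- leukemias. A single library stood apart for the members. Replicate 6 of the Pax5+/-;Myd88+/- leukemias gave the highest of its 6 values for 55 of 60 members. The C/D and H/ACA medians of that group and its counts of called members are therefore also given without it.

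Mature snoRNA sequences were not used here, and the members are shown through the start sites of their host genes instead. Ribosomal protein genes and several snoRNA hosts are known to begin transcription inside a run of pyrimidines, the terminal oligopyrimidine motif through which growth signals control ribosomal protein mRNAs, and this feature was not part of the choice of members. Each window below holds 30 bases, 15 before the annotated start and 15 from it on, written 5′ to 3′ along the gene (RefSeq, GRCm38.p6). Capitals mark an unbroken run of 6 or more C or T letters that covers the start base, and a window wholly in lower case has none. Shown are 9 hosts of named members, the first 4 with such a run and the last 5 without. For Rbmx and Wdr43 the start base of the window lies 10 and 37 bases from the 5′ end of the gene's span, and for the other hosts shown it is that end.
2410006H16Rik (Snord49a and Snord49b), chr11:62602862-62602891, + strand: tcacgcgccgTCTTTCTCTgcggccatcat
Gm36220 (Snord104), chr11:106500900-106500929, + strand: cacgtccattccggCCTCTTatcgacgggg
Rplp2 (Snora52), chr7:141447636-141447665, + strand: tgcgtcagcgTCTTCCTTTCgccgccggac
Snhg12 (Snora16a and Snora44), chr4:132308663-132308692, + strand: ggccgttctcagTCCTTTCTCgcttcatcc
Snhg1 (Snord22), chr19:8723472-8723501, + strand: gttgttcttgtcggcctcatttttccttgt
Gas5 (Snord47), chr1:161034586-161034615, + strand: agggggcgggcccgcgagctcgacagcccg
Snhg10 (Scarna13), chr12:105032265-105032294, - strand: cttccggttccttttgcggtgattgctacg
Rbmx (Snord61), chrX:57393022-57393051, - strand: cttaatttccatccgggttcttcagcctcg
Wdr43 (Snord53), chr17:71616200-71616229, + strand: accccgcgccggtgcgcctgcgcccgggcg
Of 32 host genes with a window, 7 (21.9%) held such a run, against 2381 of 32851 windows of all genes (7.25%). Hosts were counted with 1 window per gene, the one nearest the 5′ end of its span, and all genes with every window. These shares therefore do not rest on the same unit. A window in lower case says only that no run of 6 or more covers the annotated start base. Runs elsewhere in a window, as in Snhg1, Snhg10 and Rbmx, were not counted. A start annotated a few bases off would therefore miss a run. Among ribosomal protein hosts Rpl27a and Rplp2 held such a run, and Rps3, Rpl4 and Rpsa, among others, did not. The count therefore does not sort hosts by whether their mRNA carries the motif. Snord49b and Snora16a were called higher in Pax5+/-;Myd88+/- than in Pax5+/- leukemias from hosts with a run over the annotated start. Snord22, Snord47 and Snord61 were called higher from hosts without one there. Snora52 was called lower from a host with one and Snord53 from a host without one.

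The C/D box RNAs separated the groups most. The median over the 33 C/D probesets of an array averaged 8.33 ± 0.23 (SD, n = 4) in sorted WT cells, 9.42 ± 0.28 (SD, n = 6) in Pax5+/- leukemias and 11.25 ± 0.50 (SD, n = 6) in Pax5+/-;Myd88+/- leukemias. Those 3 sets of array medians did not overlap, running from 8.01 to 8.55, from 9.09 to 9.87 and from 10.79 to 12.19, and without replicate 6 the last mean was 11.07. WT proB cells stood at 10.90 ± 0.19 (SD, n = 4), and the other proB genotypes at 10.87 ± 0.24, 10.78 ± 0.29 and 10.67 ± 0.21 for Pax5+/-, Pax5+/-;Myd88+/- and Pax5+/-;Myd88-/- (SD, n = 4 each). The median over all probesets of an array averaged between 6.91 and 6.98 in every group, which the normalisation of the arrays fixes, so these levels are relative to the other probesets of an array.

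H/ACA box RNAs followed the same order over a narrower range. Their array median averaged 8.50 ± 0.13 in sorted WT cells (SD, n = 4), 9.29 ± 0.16 in Pax5+/- leukemias and 9.73 ± 0.59 in Pax5+/-;Myd88+/- leukemias (SD, n = 6 each), and 9.34 to 9.41 in the 4 proB groups. The leukemia genotypes overlapped, at 9.13 to 9.57 and 9.29 to 10.67, and without replicate 6 the Pax5+/-;Myd88+/- mean was 9.54. For the 4 Scarna probesets the highest mean was in Pax5+/- leukemias, 11.61 ± 0.24, with 11.38 ± 0.31 in Pax5+/-;Myd88+/- leukemias (SD, n = 6 each) and 10.56 ± 0.20 in sorted cells (SD, n = 4). Counted member by member, 38 of 60 had their highest group mean in Pax5+/-;Myd88+/- leukemias and 12 in Pax5+/- leukemias, and 43 had their lowest in sorted WT cells. These counts include replicate 6 and were not repeated without it.

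**Figure D1:**
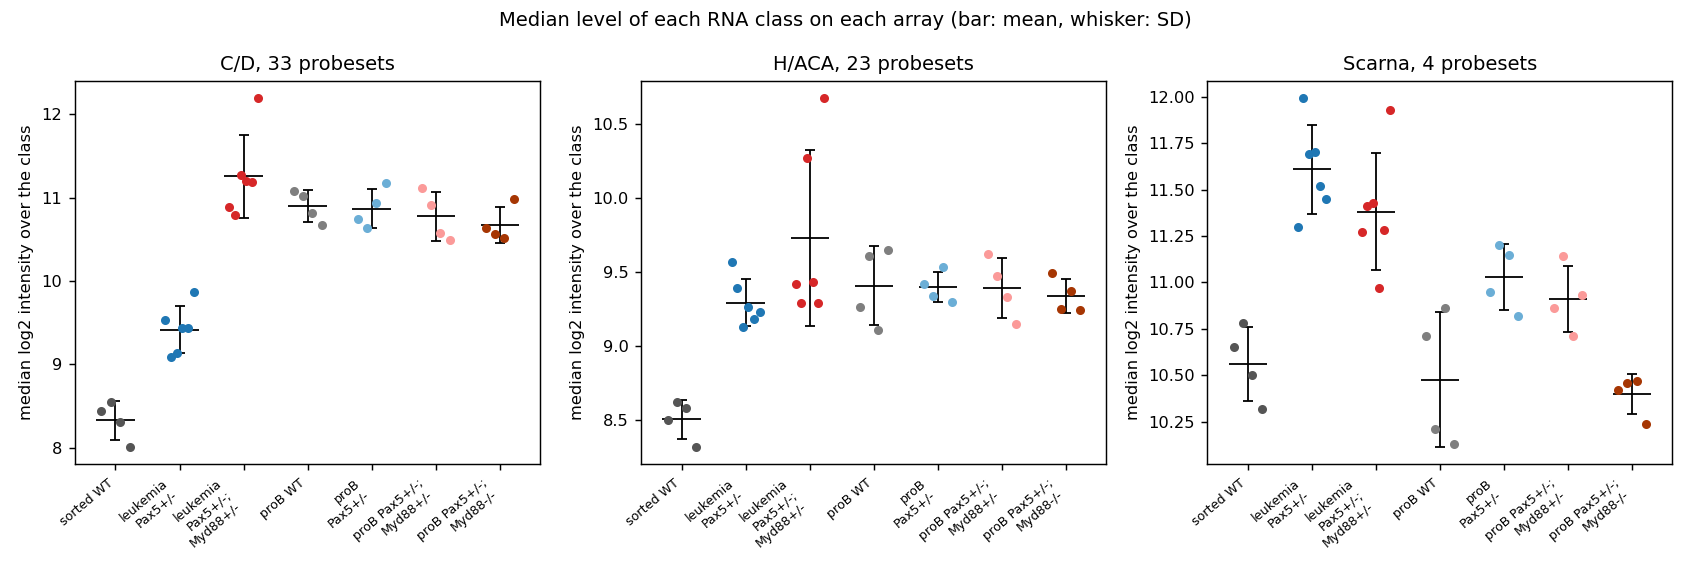
Array medians of the C/D, H/ACA and Scarna probesets (y axis, log2 intensity) for each of the 32 arrays in 7 groups, with the mean and SD of each group. The C/D medians of Pax5+/- leukemias, 9.09 to 9.87, lie between those of sorted WT cells and those of Pax5+/-;Myd88+/- leukemias, whereas the H/ACA medians of both leukemia genotypes overlap.

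The comparison of the leukemia genotypes asks what 1 missing copy of Myd88 goes with once leukemia has formed. Its groups also stand in different parts of the sample list. In Pax5+/-;Myd88+/- leukemias 25 of 60 members were higher and 2 lower than in Pax5+/- leukemias, at an adjusted p under 0.05 and more than a 2-fold difference (limma, Benjamini-Hochberg over 28944 probesets). Of all probesets 1.25% were called higher and 2.56% lower. The higher members were 21 of 33 C/D probesets and 4 of 23 H/ACA probesets, and no Scarna probeset was called. The median log2 difference was 1.42 for C/D, 0.22 for H/ACA, 0.06 for Scarna and 0.01 for all probesets. Every array of the Pax5+/-;Myd88+/- group lay above every array of the other group for 22 members, 20 of them C/D, where 7.32% of all probesets did so. Without replicate 6, the array that stood apart most, 25 members were called, 23 of them among these 27.

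Snord58b, a C/D RNA inside the span of the ribosomal protein gene Rpl17, had the largest differences. It is read by a pair of probesets, of which the one with the smaller difference gave 5.55, 5.63 and 6.71 (lowest, median and highest of 6 arrays) in Pax5+/- leukemias and 10.06, 11.00 and 12.15 in Pax5+/-;Myd88+/- leukemias. It gave 5.16, 5.22, 5.36 and 4.96 in sorted WT cells and 10.82, 11.07, 10.72 and 10.67 in WT proB cells. Sorted cells and Pax5+/- leukemias were thus near the bottom of the scale and the other groups far above, with no overlap. The difference between leukemias was 5.23 ± 0.28 (SE, adjusted p = 5.97e-09, limma), and the other Snord58b probeset gave 5.30 ± 0.27.

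Snord61, in the span of the RNA-binding protein gene Rbmx, behaved alike. It read 5.80, 6.53 and 7.01 (lowest, median, highest) in Pax5+/- leukemias against 11.06, 11.36 and 12.40 in Pax5+/-;Myd88+/- leukemias. Sorted WT cells gave 6.51, 6.37, 5.70 and 5.62, inside or just below the Pax5+/- range, and WT proB cells gave 11.10, 10.39, 10.99 and 10.42. The leukemia difference was 4.98 ± 0.24 (SE, adjusted p = 2.77e-09, limma). The Rbmx probeset differed by 0.16 ± 0.10 (SE, adjusted p = 0.239), which did not pass the test.

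Snord22 lies in the span of Snhg1, a non-coding host that carries several snoRNAs. In Pax5+/- leukemias it read 8.04, 8.38 and 8.57 (lowest, median, highest), and in Pax5+/-;Myd88+/- leukemias 12.48, 12.59 and 13.24, the last being replicate 6. In sorted WT cells it read 7.07, 6.93, 6.97 and 6.91, below all leukemias, and in WT proB cells 12.41, 12.63, 12.42 and 12.63. It was called in every comparison that crossed between these sources or between the leukemia genotypes, with 4.35 ± 0.12 between the leukemias (SE, adjusted p = 1.03e-11, limma). The Snhg1 transcript itself has no single-gene probeset.

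Pairs of C/D RNAs from 1 host moved by unequal amounts. Snord15a and Snord15b, both in Rps3, differed by 3.13 ± 0.31 and 2.53 ± 0.15 (SE) between the leukemias, while Rps3 differed by 0.17 ± 0.08. For Snord42a and Snord42b in Rpl23a the values were 2.92 ± 0.23 and 1.14 ± 0.23, for Snord33 and Snord35a in Rpl13a 2.60 ± 0.12 and 1.13 ± 0.20, and for Snord49a and Snord49b in 2410006H16Rik 2.62 ± 0.23 and 1.21 ± 0.26. All 8 of these RNAs were called higher. In Rps3a1 only Snord73a was called, at 2.46 ± 0.21, with 0.71 ± 0.20 for Snord73b. The differences within a pair were not tested.

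Further C/D members were called higher between the leukemias. Snord38a differed by 3.65 ± 0.19 (SE) and Snord55 by 3.42 ± 0.16. Snord87, in Snhg6, differed by 2.73 ± 0.19 (SE), Snord8 in Gm26590 by 1.93 ± 0.16, and Snord16a in Rpl4 by 1.93 ± 0.25. Snord47, in Gas5, differed by 1.47 ± 0.12, Snord14e in the heat shock protein gene Hspa8 by 1.42 ± 0.22, and Snord82 in the nucleolin gene Ncl by 1.02 ± 0.12. In the H/ACA class the members called higher were Snora62 (host Rpsa, 1.56 ± 0.34), Snora31 (Tpt1, 1.48 ± 0.26), Snora33 (Rps12, 1.27 ± 0.32) and Snora16a (Snhg12, 1.12 ± 0.23). Apart from Snora31, their leukemia groups overlapped. Snora62 read 7.33, 7.68 and 8.35 (lowest, median, highest) in Pax5+/- leukemias and 8.27, 8.98 and 10.64 in Pax5+/-;Myd88+/- leukemias, and Snora16a read 10.11, 11.03 and 11.59 against 11.42, 12.01 and 12.83.

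The pair of members that fell stood out from the rest of their classes. Snord53, a C/D RNA in the span of the ribosome assembly gene Wdr43, read 11.04, 11.18 and 11.71 (lowest, median, highest) in Pax5+/- leukemias and 9.27, 9.77 and 10.80 in Pax5+/-;Myd88+/- leukemias. It read 9.60, 9.69, 9.59 and 9.68 in sorted WT cells and 9.81, 9.22, 9.66 and 9.54 in WT proB cells, so the Pax5+/- leukemias were the group above all others. The difference was -1.46 ± 0.20 (SE, adjusted p = 4.08e-05, limma), against 0.03 ± 0.12 for Wdr43. The H/ACA RNA Snora52, in the ribosomal protein gene Rplp2, read 12.97, 13.18 and 13.67 in Pax5+/- and 11.63, 12.15 and 12.97 in Pax5+/-;Myd88+/- leukemias, a difference of -1.02 ± 0.20 (SE, adjusted p = 0.00103), with -0.25 ± 0.11 for Rplp2. Its groups met at 12.97. Snord52, Snora7a and Scarna13 gave -0.88, -0.80 and -0.82 and did not reach a 2-fold difference.

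**Figure D2:**
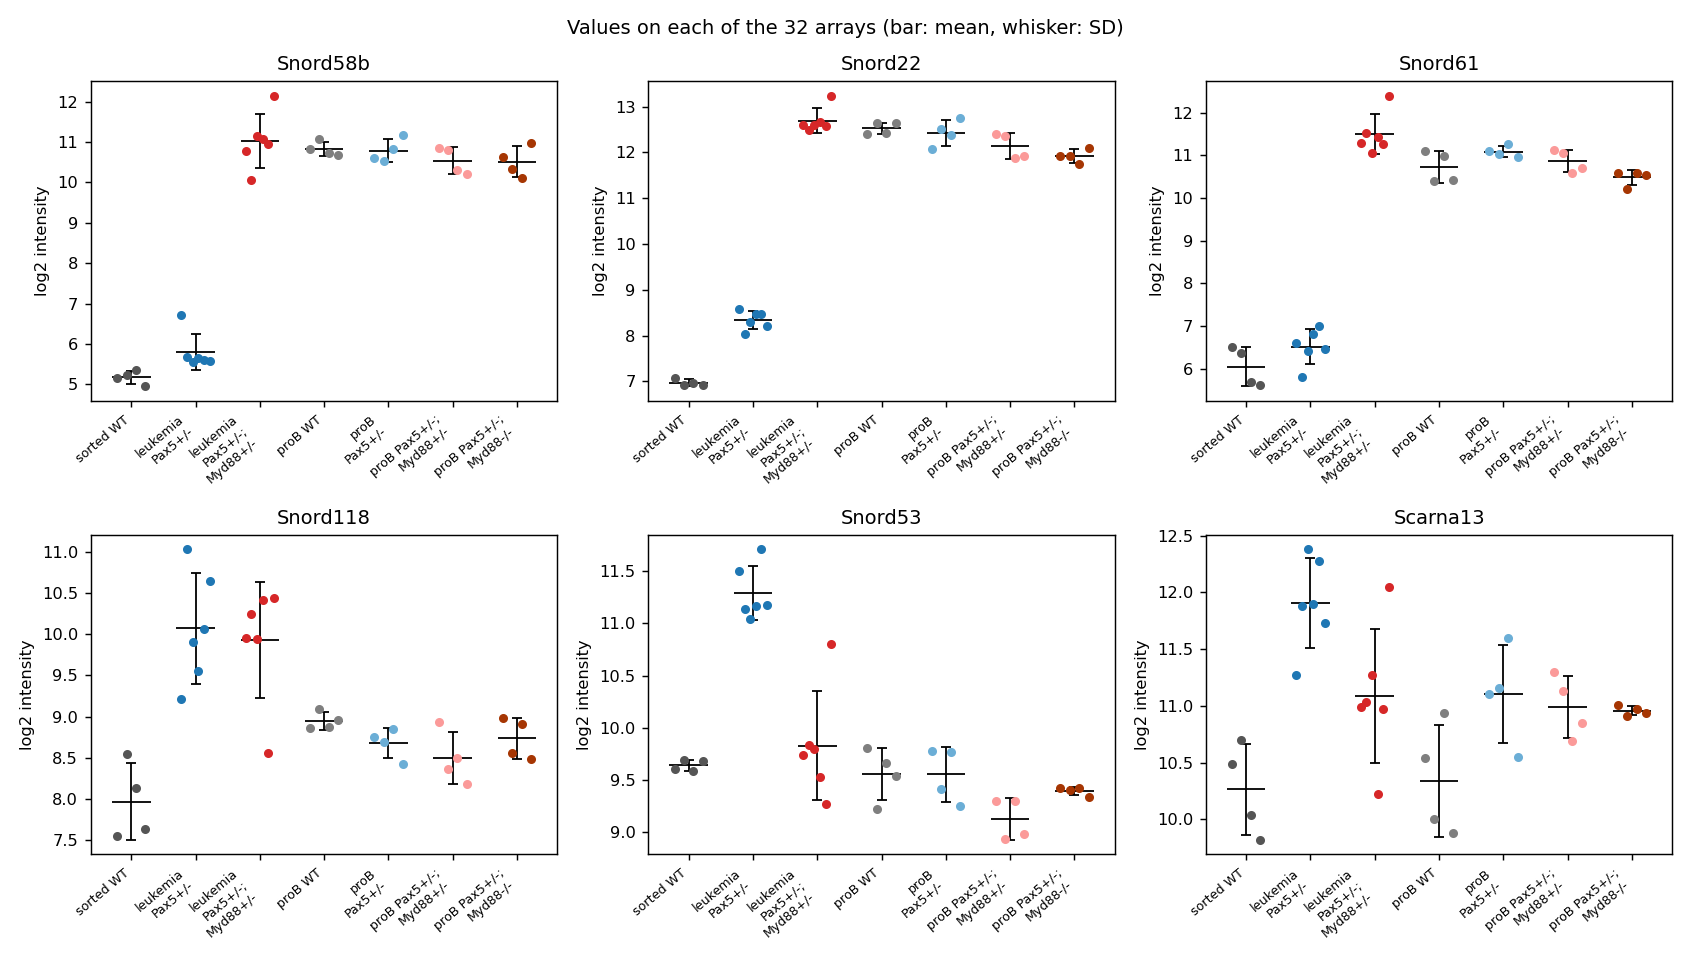
Log2 intensity (y axis) of Snord58b, Snord22, Snord61, Snord118, Snord53 and Scarna13 on each of the 32 arrays, by group (x axis), with the group mean (bar) and SD (whisker). Snord58b, Snord22 and Snord61 are low in sorted WT cells and Pax5+/- leukemias and above 10 in all other groups, whereas Snord53 is highest in Pax5+/- leukemias.

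Against sorted WT cells both leukemias were higher in many members and lower in none. These comparisons share the sorted arrays, so each is given on its own. In Pax5+/-;Myd88+/- leukemias 35 of 60 members were higher (25 C/D, 10 H/ACA), where 3.33% of all probesets were higher and 4.30% lower, and 30 of these 35, with no others, were called without replicate 6. The median log2 difference was 2.09 for C/D, 0.96 for H/ACA and 0.83 for Scarna. In Pax5+/- leukemias 20 were higher (12 C/D, 7 H/ACA and 1 Scarna), where 2.73% of all probesets were higher and 1.72% lower, with medians of 0.78, 0.55 and 0.77. Markers of other cells moved with both contrasts. In Pax5+/-;Myd88+/- leukemias 3 of 7 macrophage, 5 of 7 stromal and 1 of 4 platelet markers were higher, and 4 of 5 NK, 2 of 4 erythroid, 1 of 5 T cell and 3 of 8 B lineage markers were lower. In Pax5+/- leukemias 5 of 7 macrophage, 5 of 7 stromal and 4 of 4 platelet markers were higher, and 4 of 5 NK, 2 of 4 erythroid, 1 of 5 T cell and 1 of 8 B lineage markers were lower. No granulocyte marker was called in either. Stromal markers averaged 6.65 to 6.79 in sorted cells, 8.17 to 9.03 in Pax5+/- and 7.35 to 9.92 in Pax5+/-;Myd88+/- leukemias, and platelet markers 6.17 to 6.26, 8.58 to 11.00 and 6.20 to 9.88. Their part in the members' differences was not tested.

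Snord87 showed a stepwise order. It read 6.81, 7.69, 7.48 and 6.67 in sorted WT cells, then 9.10, 9.82 and 9.97 (lowest, median, highest) in Pax5+/- leukemias, and 12.27, 12.33 and 12.87 in Pax5+/-;Myd88+/- leukemias. No group overlapped another. Pax5+/- leukemias exceeded sorted cells by 2.54 ± 0.21 (SE, adjusted p = 1.01e-06, limma) and Pax5+/-;Myd88+/- leukemias exceeded them by 5.27 ± 0.21 (SE, adjusted p = 1.39e-10).

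Snord47, from the growth arrest transcript Gas5, took the same order over a shorter range. Sorted WT cells gave 8.48, 9.09, 8.87 and 8.89, Pax5+/- leukemias 10.73, 10.96 and 11.08 (lowest, median, highest) and Pax5+/-;Myd88+/- leukemias 12.16, 12.36 and 12.88. These groups did not overlap, and the rise from sorted cells to Pax5+/- leukemias was 2.11 ± 0.13 (SE, adjusted p = 8.21e-08, limma). Gas5 was itself higher in Pax5+/-;Myd88+/- than in Pax5+/- leukemias, by 1.27 ± 0.11 (SE, adjusted p = 6.26e-07) in the probeset with the highest mean. Its 4 probesets ran from 0.64 to 2.14, on either side of the 1.47 of Snord47.

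Other members were called in both leukemias against sorted cells and not between the leukemias. Snord118, which is U8, acts in the maturation of ribosomal RNA precursors rather than in its modification and lies in no host found here. It read 7.56, 8.55, 8.14 and 7.64 in sorted WT cells, 9.22, 9.98 and 11.03 (lowest, median, highest) in Pax5+/- leukemias and 8.56, 10.11 and 10.44 in Pax5+/-;Myd88+/- leukemias. Both leukemia groups lay above the sorted cells and overlapped each other, with differences of 2.10 ± 0.39 (SE, adjusted p = 0.00117, limma), 1.95 ± 0.39 (adjusted p = 0.00113) and, between the leukemias, -0.14 ± 0.35 (adjusted p = 0.780). Snora73a and Snora73b, in Snhg3, act in precursor cleavage, and both rose in both leukemias, Snora73a by 1.38 ± 0.21 in Pax5+/- and 1.06 ± 0.21 in Pax5+/-;Myd88+/- leukemias. The Snora21 probesets, in Rpl23, rose by 1.45 and 1.37 and by 1.60 and 1.57.

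Some members were called in Pax5+/- leukemias against sorted cells and not in Pax5+/-;Myd88+/- leukemias. Snord52 differed by 1.63 ± 0.23 and 0.75 ± 0.23 (SE), Snord96a by 1.27 ± 0.14 and 0.79 ± 0.14, and Snora7a by 1.11 ± 0.22 and 0.31 ± 0.22. Snora69 differed by 1.26 ± 0.27 and 0.99 ± 0.27. Scarna13, from Snhg10, was the only Scarna member called in a leukemia comparison. It read 10.49, 10.70, 10.04 and 9.82 in sorted cells, 11.27, 11.89 and 12.38 (lowest, median, highest) in Pax5+/- leukemias and 10.22, 11.01 and 12.05 in Pax5+/-;Myd88+/- leukemias. Its difference in Pax5+/- leukemias was 1.64 ± 0.29 (SE, adjusted p = 8.60e-04, limma), with no overlap. For Scarna17, in Gm41774, both leukemias lay above the sorted cells, by 0.77 ± 0.12 and 0.83 ± 0.12, under the 2-fold limit.

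**Figure D3:**
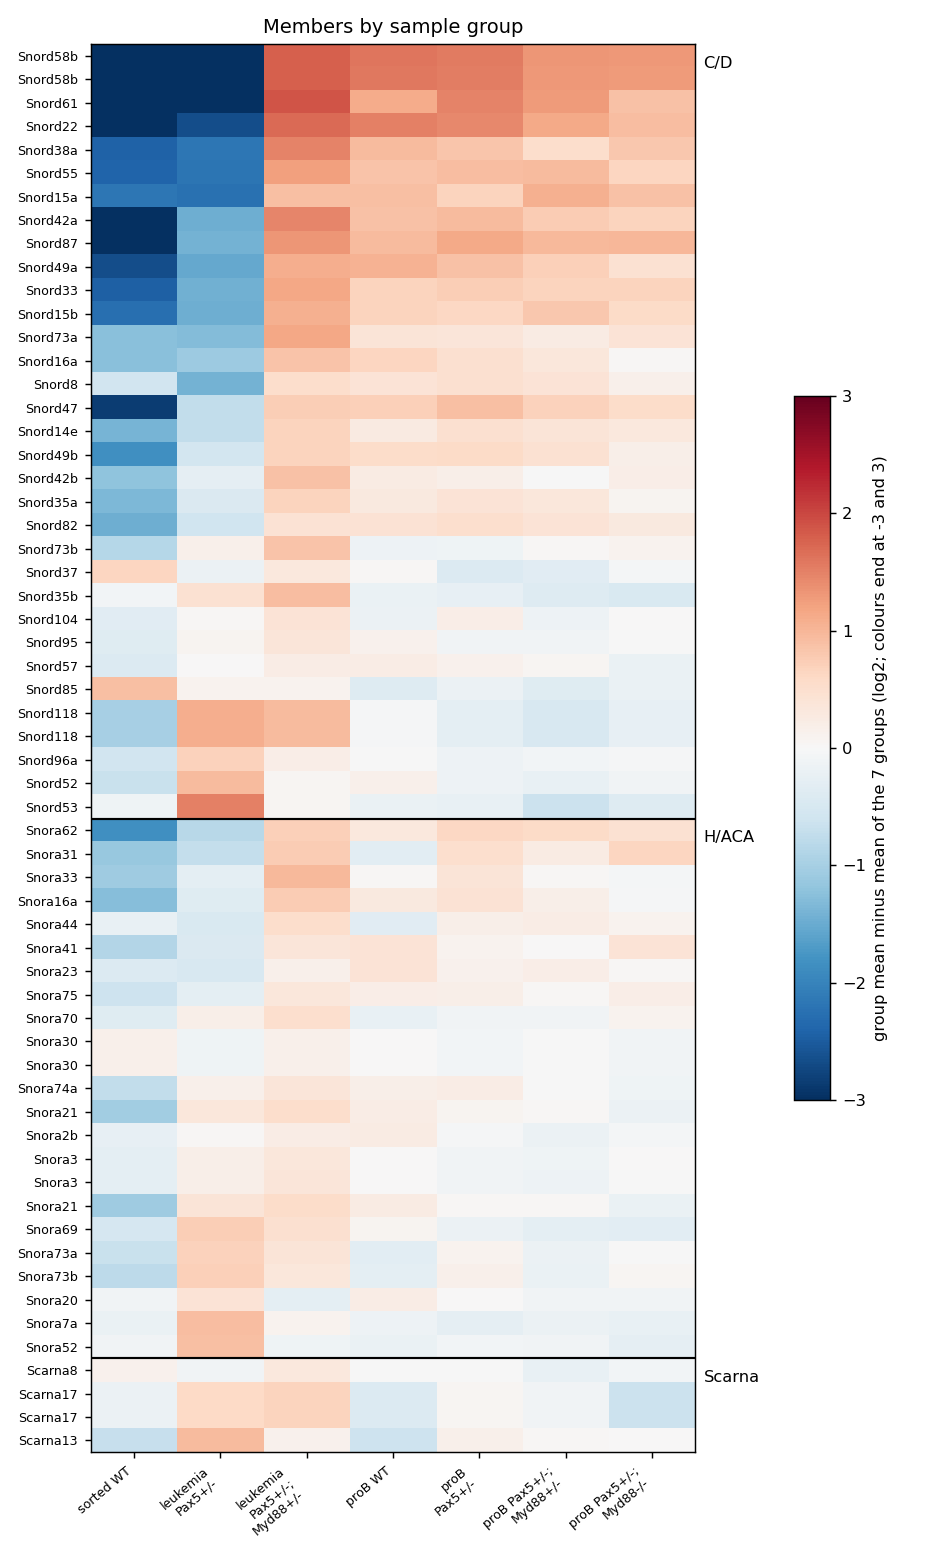
Mean log2 intensity of each of the 60 members in each of the 7 groups, shown for every member as the difference from its own mean over the groups (colour scale in log2 units, ending at -3 and 3). Most C/D members are low in sorted WT cells and Pax5+/- leukemias and high in the other groups, and most H/ACA and Scarna members vary less.

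The proB cells ask whether the same genotypes differ before leukemia. No member was called in any of the 3 comparisons (limma), where 1.08%, 0.812% and 0.981% of all probesets were, in the order given next. Between Pax5+/- and WT proB cells 17 of 60 members had an unadjusted p under 0.05, as did 16.8% of all probesets, and the differences ran from -0.46 to 0.81 with a median of -0.02. Between Pax5+/-;Myd88+/- and Pax5+/- proB cells 10 of 60 had an unadjusted p under 0.05, as did 11.7% of all probesets, and the differences ran from -0.42 to 0.40 with a median of -0.12. Between Pax5+/-;Myd88-/- and Pax5+/- proB cells 20 of 60 had an unadjusted p under 0.05, as did 26.1% of all probesets. The differences ran from -0.71 to 0.35 with a median of -0.13. Every Pax5+/-;Myd88-/- array lay below every Pax5+/- array for 17 of 60 members and above for 1. Of all 28944 probesets 2336 lay below and 2371 above. In the first comparison 8 members lay wholly above and 2 below (1622 and 1323 of all probesets), and in the second 3 and 2 (1116 and 1192). The methods' t-test at the study's own threshold, an unadjusted p under 0.05 with a 2-fold change, also called no member in the 3 comparisons. Snord22, which differed by 4.35 between leukemias, read 12.08, 12.51, 12.37 and 12.74 in Pax5+/- proB cells and 12.41, 12.35, 11.87 and 11.91 in Pax5+/-;Myd88+/- proB cells. Those arrays overlapped.

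The Myd88+/- difference was tested between the leukemias and the proB cells as an interaction over all 32 arrays. Among its groups only the Pax5+/- leukemias stand in the last part of the sample list. It was positive and called for 25 members and negative and called for 1, where 1.76% of all probesets were positive and 2.79% negative. The median was 1.51 for C/D, 0.24 for H/ACA and 0.23 for Scarna. The largest was Snord58b at 5.56 ± 0.37 (SE, adjusted p = 1.11e-11, limma), followed by Snord61 at 5.20 ± 0.32 (SE, adjusted p = 4.36e-12). Snord53 was the negative one, at -1.04 ± 0.26 (SE, adjusted p = 0.00469). Without replicate 6 of the Pax5+/-;Myd88+/- leukemias 28 members were called, these 26 among them.

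WT proB cells and sorted WT proB and preB cells share the genotype and differ in how they were selected and, by the methods, in culture. In proB cells 26 members were higher (20 C/D and 6 H/ACA) and 1 lower than in sorted cells, where 3.75% of all probesets were higher and 6.20% lower. The median log2 difference was 1.65 for C/D, 0.50 for H/ACA and -0.18 for Scarna. Every proB array lay above every sorted array for 39 members, where 24.9% of all probesets did so. Snord58b differed by 5.65 and 5.70 in its pair of probesets, Snord22 by 5.55 ± 0.15 (SE, adjusted p = 3.02e-21, limma), Snord87 by 4.90 ± 0.18 and Snord61 by 4.68 ± 0.25. Snord85 was the member that fell, with 7.59, 7.78, 7.80 and 7.76 in sorted cells and 6.41, 6.50, 6.22 and 6.66 in proB cells. The difference was -1.29 ± 0.14 (SE, adjusted p = 1.79e-08) with no overlap. Of stromal markers, the kind a feeder layer expresses, 4 of 7 were higher, with array means of 6.65 to 6.79 in sorted and 7.94 to 8.69 in WT proB arrays. Lower in proB cells were 5 of 5 NK markers (8.34 to 9.14 against 5.77 to 6.22), 4 of 8 granulocyte markers (7.24 to 9.71 against 6.07 to 6.14), 2 of 4 erythroid, 1 of 7 macrophage and 1 of 5 T cell markers, while 2 of 8 B lineage markers were higher and 1 lower. Their part in the members' differences was not tested.

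The members that separated proB from sorted cells were largely those that separated the leukemia genotypes. The comparisons share no array, but each sets a group from the first part of the sample list against a group from the last. A difference in handling between these parts would enter both comparisons, and whether there was one is not given and was not tested. Over the 60 members the differences had a Pearson's r of 0.89, with 0.89 over C/D and 0.59 over H/ACA probesets, and 0.55 over all 28944 probesets. Points of 1 host or 1 gene are not independent. The same sign was shared by 70.0% of members and 70.4% of all probesets, so agreement in sign alone did not set the members apart. Of 27 members called in each comparison 23 were called in both, 85.2% of either list. Over all probesets 697 were called in both, 63.2% of the leukemia calls and 24.2% of the proB calls. Of the 28944 probesets 1102 were called between the leukemias and 2878 between proB and sorted cells, against 27 of 60 members in each. Lists that hold a larger share of their set overlap more by construction, so these percentages do not set the members apart. Snord53 and Snora52 were called between the leukemias and differed by -0.08 and -0.08 between proB and sorted cells.

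**Figure D4:**
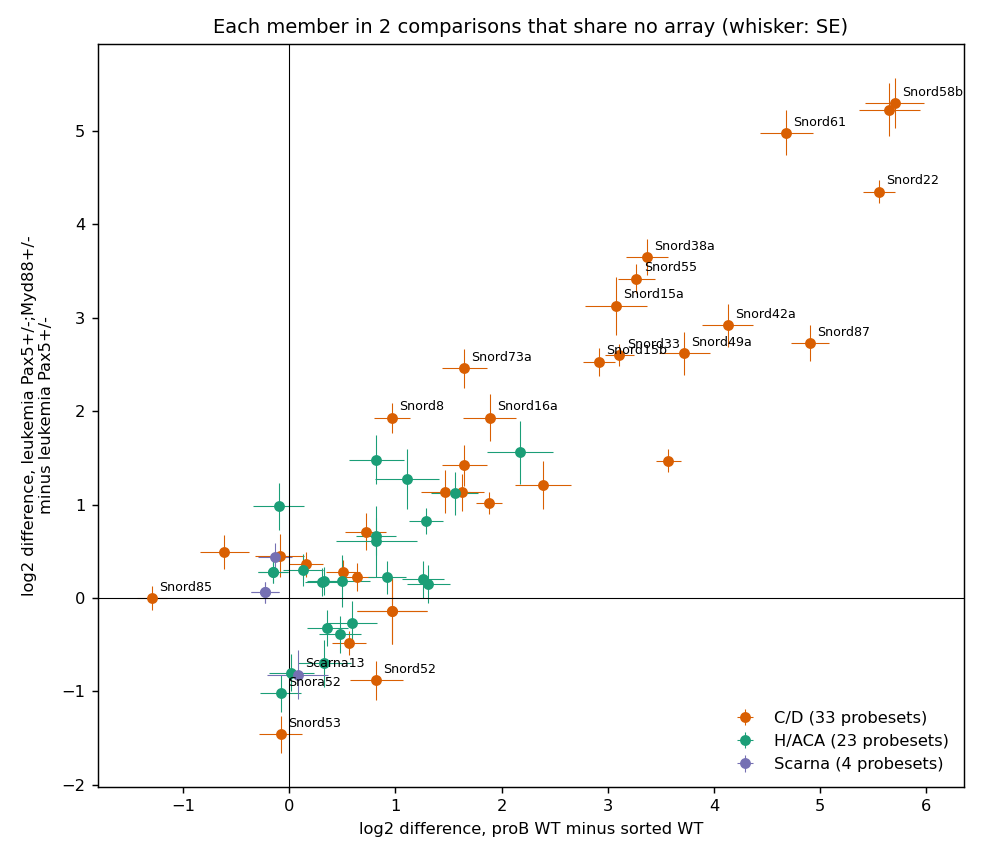
For each of the 60 members, the log2 difference between Pax5+/-;Myd88+/- and Pax5+/- leukemias (y axis) against the log2 difference between WT proB and sorted WT cells (x axis), coloured by class, with SE whiskers. Snord58b, Snord61 and Snord22 lie at the upper right, and Snord53 and Snora52 lie below 0 on the y axis near 0 on the x axis.

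Host transcripts were compared with the RNAs inside them. A host gene was found by its span for 53 of 54 member genes (38 protein-coding, 15 non-coding), and 24 of 43 host genes had a single-gene probeset, which covered 28 member genes. Between the leukemias the median difference was 0.17 for the host of these 28 and 0.68 for all 54 member genes. These sets are unlike, because the 54 include genes without a host probeset, such as Snord58b and Snord22. Within the 28 the member's difference was the larger in size for 23. Host and member are read by different probes, so their differences were set side by side and not their levels. Gas5 and Rps12 (1.10 ± 0.11) were the hosts called higher, and Tpt1, the host of Snora31, gave -0.40 ± 0.04 while Snora31 rose. Several hosts are ribosomal protein genes with near-identical copies, for which the array value is uncertain.

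**Figure D5:**
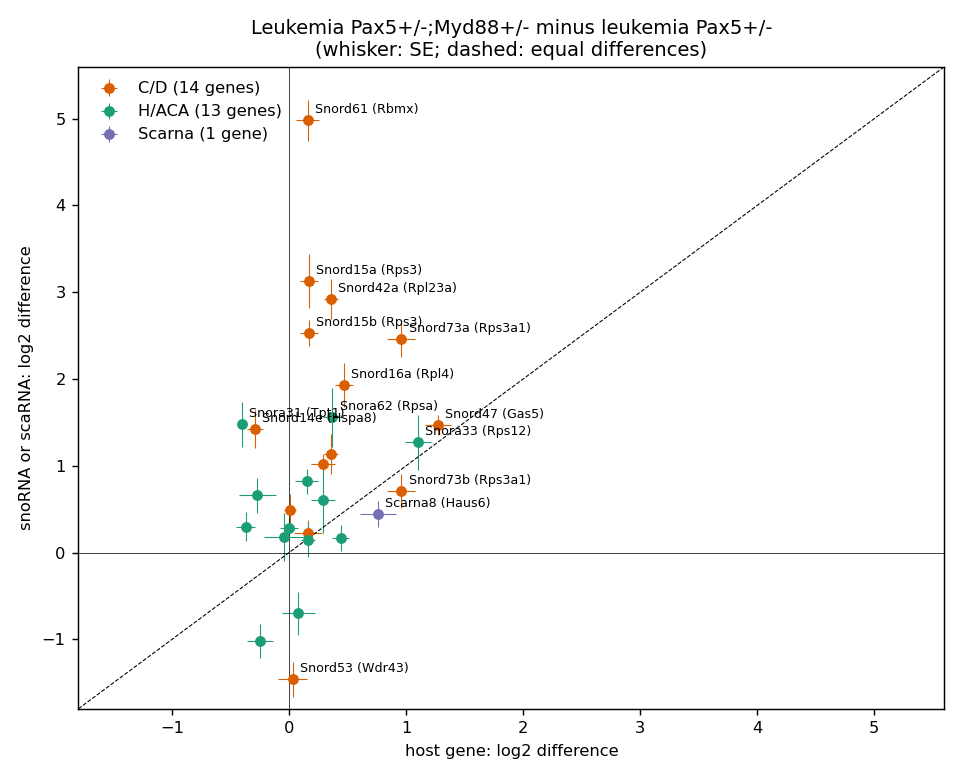
Log2 difference between Pax5+/-;Myd88+/- and Pax5+/- leukemias for each member (y axis) against that of its host gene (x axis), for the 28 member genes with a host probeset, with SE whiskers and a dashed line of equal differences. Most members lie above the line of equality, Snord47 and Snora33 have hosts that also rose, and Snord53 lies below 0 with a host near 0.

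Length and level were set against the members' differences. The RNAs are annotated at 45 to 275 bases. The Spearman correlation of the leukemia difference with length was -0.25 over 54 genes and 0.01 over the 31 C/D genes, given as a description. The 4 C/D genes over 100 bases had a median difference of 2.83 and the 27 shorter ones 1.21. With the mean level over the arrays it was 0.19 over the 54 genes.

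The proteins that act on these RNAs were measured through 39 of 40 listed genes, none of which was called higher between the leukemias. Fbl, which encodes fibrillarin, differed by -0.04 ± 0.11 (SE), its partners Nop56 and Nop58 by 0.16 ± 0.12 and 0.74 ± 0.16, and Snu13 by -0.91 ± 0.17. Dkc1, which encodes dyskerin, differed by -0.10 ± 0.17, Gar1 by -0.15 ± 0.11, Nhp2 by 0.06 ± 0.18 and Nop10 by -0.37 ± 0.18. None of these core genes passed both thresholds. The assembly factor Nufip1 was the one called, lower at -1.32 ± 0.13 (SE, adjusted p = 2.62e-06, limma). Against sorted cells Pax5+/-;Myd88+/- leukemias were higher in Nop58 (1.74), Zcchc7 (1.09), Naf1 (1.03) and Exosc7 (1.02).

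Other small RNAs were counted by the same rule between the leukemias. Of 13 small nuclear and structural RNA probesets 3 were higher and 1 lower, with a median of 0.28. The higher ones were the Y RNA Rny1 (4.26 ± 0.31, SE), Rnu3a, which is the C/D box RNA U3 (2.35 ± 0.35), and the RNase MRP RNA Rmrp (1.19 ± 0.12). The telomerase RNA Terc, which carries an H/ACA domain, fell, with a difference of -3.03 ± 0.30 (SE, adjusted p = 2.35e-06, limma). Rn7sk, a polymerase III product, gave 0.06 and 0.28 in its pair of probesets, and Rnu12 gave 0.01. Of 305 microRNA probesets 2 were higher and 2 lower, with a median of 0.09, and of 211 ribosomal protein probesets 28 were higher and 2 lower, with a median of 0.06. Of 41 probesets that name a snoRNA or scaRNA together with other genes 9 were higher and none lower, with a median of -0.40. That median rests on dim probesets. The array median of this list averaged 5.03 ± 0.59 in Pax5+/- and 4.62 ± 0.08 in Pax5+/-;Myd88+/- leukemias (SD, n = 6 each), against 6.94 and 6.98 over all probesets. Among markers of other cells 2 of 4 platelet markers and 1 of 7 stromal markers were lower, and 0 of 8 granulocyte and 0 of 7 macrophage markers were called, with medians of -1.21 and -0.87. RNA quality and sample handling were not given, and whether they had a part in the members' differences was not tested.

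Across the 7 genotype and source comparisons and the interaction 17 of 60 probesets were never called. They included Snord104, in Gm36220, which read 12.36, 12.45, 12.42 and 12.11 in sorted cells and 12.68, 12.99 and 13.61 (lowest, median, highest) in Pax5+/-;Myd88+/- leukemias. Snord37, Snord57 and Snord95 were the other C/D members never called, along with both Scarna17 probesets, Scarna8 and 10 H/ACA probesets. In this set the C/D class was not uniform: Snord57 in Nop56 differed by 0.22 ± 0.15 (SE) and Snord37 in Eef2 by 0.49 ± 0.18 between the leukemias. The genes Snord118, Snora30 and Scarna17 are each read by probesets with identical values on all 32 arrays, so these count as 1 measurement each.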

How the data were processed

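Total RNA (TRIzol, followed by a column clean-up in the study's methods) was hybridised to 32 single-colour MoGene 1.0 ST arrays. The authors deposited log2 intensities per probeset, made with the Transcriptome Analysis Console by gene-level robust multi-array averaging against mm10, and whether all arrays were normalised together is not given in the sources used here. Groups came from the labels. The p-values measure the spread between the labelled biological replicates, whose number limits the precision. In WT proB cells replicates 1 and 3 correlated at 0.9982 and replicates 2 and 4 at 0.9979, against 0.9906 to 0.9912 for the other pairs. For Pax5+/- proB cells the same pairs gave 0.9965 and 0.9976, and the others 0.9913 to 0.9951. The labels explain no such pairs, and the fits took all arrays as independent. If paired arrays are not independent, p-values that involve these groups are too small, which was not tested.

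Members, lists and named genes were chosen with earlier results of these data known, and the lists stand as counts and medians without a test. limma 3.58.1 (lmFit, eBayes, R 4.3.3) was fitted to all 28944 probesets, with Benjamini-Hochberg adjustment over all of them, over the 16 leukemia and sorted arrays, over the 16 proB arrays, or over all 32 where both experiments were joined. Calls needed more than a 2-fold difference (1 on the log2 scale) together with an adjusted p below 0.05. The fit was tested on simulated data. No filter on dim probesets was set. Such values understate differences at the low end, because the intensity of a gene at background does not reach 0.

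Named members were, by rule, the called members with the largest rises and falls (4 each for the leukemia comparisons and for proB against sorted cells, 2 each for the others), the 2 with the highest mean in each class, and the Scarna members called in a leukemia comparison. All other members named were chosen after their values were seen. Hosts are genes whose span contains the member in the RefSeq table of GRCm38.p6, and the study's build is mm10, the same assembly. The table gives the spans and no exons, so intron or exon was not assigned, and strand was not used. The host value is the single-gene probeset with the highest mean. The other lists were small nuclear and structural RNAs (13 probesets), microRNAs (305), histones (30, of which 3 were higher and 2 lower between the leukemias), ribosomal proteins (211), snoRNP proteins (39 of 40 genes) and cell type markers. In that comparison 1 of 8 B lineage markers was higher, and 0 of 4 erythroid, 0 of 5 T cell and 0 of 5 NK markers were called. Mitochondrial transcripts had no single-gene probeset. No member belongs to an imprinted snoRNA cluster, so that class has no value here. Alternatives were other sets of arrays in the fit, median centring, renewed quantile normalisation, a filter at a mean log2 of 6, limma-trend, array weights, a replicate block, the methods' t-test, other thresholds, 1 probeset per gene and leaving out each array.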

Additional observations from a re-analysis of the deposited data

Results flagged for a closer look

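Of 140 tests of a single array against the rest of its group, 13 picked out an array whose gap to the nearest other array was large for the range of the group. For a single test chance gives about 1 in 20. The 140 are not independent, because identical probesets of Snord118 and of Scarna17 are counted separately and the class medians rest on the members. Their count was therefore not tested against that rate. Replicate 6 of the Pax5+/-;Myd88+/- leukemias was such an array for Snord22 at 13.24 (others 12.48 to 12.66), Snord61 at 12.40 (11.06 to 11.53), Snord53 at 10.80 (9.27 to 9.83), Snord49b at 13.72 (13.04 to 13.23) and for the C/D median at 12.19 (10.79 to 11.27). In the same group replicate 5 was low for both probesets of Snord118 at 8.56 (9.94 to 10.44). Replicate 1 of the Pax5+/- leukemias was high in the pair of Snord58b probesets, at 6.70 (5.64 to 5.70) and 6.71 (5.55 to 5.67).

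In proB cells the distances were smaller. Snord61 was low in Pax5+/-;Myd88-/- replicate 2 at 10.22 (10.54 to 10.59), Snora52 in Pax5+/-;Myd88-/- replicate 4 at 11.99 (12.11 to 12.13), Snord87 was high in Pax5+/-;Myd88+/- replicate 1 at 12.21 (12.03 to 12.04), and Snord49b was high in Pax5+/- replicate 3 at 13.27 (13.08 to 13.11).

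The log2 difference that goes with Myd88+/- was larger in leukemias than in proB cells, by the interaction test in limma, for Snord58b by 5.56 and 5.47, Snord61 by 5.20, Snord22 by 4.64, Snord87 by 2.90, Snord47 by 1.68, Snora16a by 1.38 and Snord49b by 1.34. For Snord53 this difference was -1.04.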

How the results depend on the processing

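Counts of called members kept within 1.5 times of the reported ones under all alternatives except one. With an adjusted p under 0.05 and no limit on the fold, Pax5+/- leukemias against sorted cells gave 35 called members in place of 20. By that rule Pax5+/- against WT proB cells gave 8 in place of 0, and Pax5+/-;Myd88-/- against Pax5+/- proB cells 9 in place of 0. The looser rule raises counts by construction. The share of all probesets that it called was not counted, so these counts are not read as a result about the members. With arrays left out in turn, the counts ran from 30 to 37 for Pax5+/-;Myd88+/- leukemias against sorted cells, 18 to 21 for Pax5+/- leukemias against sorted cells, 25 to 28 between the leukemias, 27 to 29 for proB against sorted cells, 25 to 28 for the interaction, and stayed at 0 in the 3 proB comparisons. Renewed quantile normalisation gave 36, 18, 27, 31 and 26 for the first 5 of these, in that order. With 1 probeset per gene the H/ACA median of Pax5+/- proB cells was 9.51 in place of 9.40 and the Scarna median of sorted cells 10.26 in place of 10.56.

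Groups share replicate numbers. Deviations of same-numbered arrays correlated between -0.15 and 0.52 over 6 pairs of leukemias, with 1 pair above 0.1. Above 0.1 were also 3 of 4 pairs between Pax5+/-;Myd88-/- and Pax5+/- proB cells (0.04 to 0.29), 2 of 4 between Pax5+/-;Myd88+/- and Pax5+/- proB cells (-0.02 to 0.41), 1 of 4 between Pax5+/- and WT proB cells (0.01 to 0.12) and none elsewhere (-0.07 to 0.09). No comparison had every pair above 0.1, and the labels give separate mice, so the numbers were not taken to pair the samples. With the replicate block the counts were 34, 17, 27, 27 and 26 in the same order and 0 in the proB comparisons.

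Of 438 values of named members under the alternatives 424 kept their direction and call, 14 kept their direction and lost the call, and none reversed. Those lost were Snora52 between the leukemias, -0.93 under renewed quantile normalisation and -0.90 to -0.99 without one of 4 arrays, and Snord53 in the interaction, -0.91 and -0.93 to -0.99 without one of 8 arrays, all by falling below the 2-fold limit. Snord58b and Snord38a lie near the dim end of the scale in sorted cells and Pax5+/- leukemias, which limits the size that their differences can show.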

Other observations

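Between WT proB and sorted WT cells small structural RNAs gave values beside those of the members. Rny1, a Y RNA bound by the Ro protein, was higher in proB cells by 5.63 ± 0.30 (SE, adjusted p = 1.13e-14, limma), with Rmrp higher by 1.65 ± 0.11, Vaultrc5 by 1.70 ± 0.22, Rnu3a by 1.29 ± 0.33 and Rny3 by 1.11 ± 0.27. Terc was lower, with -1.32 ± 0.29. Rn7sk gave 0.07 and 0.37 and Rnu12 gave 0.46, under the 2-fold limit. Rny1, Rmrp, Rnu3a and Terc were called in the same direction between the leukemia genotypes, and Rny3 gave -0.59 ± 0.28 there.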
